A study of Mus musculus with 77 samples.

Results

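Livers of mice given semaglutide for 8 weeks while they stayed on a MASH diet were set against livers of mice whose MASH diet had been replaced by chow for 8 weeks (chow reversal). The mice were taken by their treatment labels. They are 7 semaglutide mice and 7 chow reversal mice, 14 of the 77 liver RNA libraries of the series, and each library comes from 1 mouse. All were male C57BL/6JRj mice, 5 to 6 weeks old when the diet began. The diet of this diet-induced obesity model of metabolic dysfunction-associated steatohepatitis (DIO-MASH) held 40% of its energy as fat, 22% fructose, 10% sucrose and 2% cholesterol. The paper's methods give 34 weeks on it before treatment, while the ages in its reporting summary leave a shorter time. A liver biopsy was taken 4 weeks before treatment and used to select mice. The paper's methods let mice enter by a high steatosis score alone or by steatosis with fibrosis, whereas its statistics section required both. Semaglutide was injected under the skin once daily at 123 µg per kg, a dose reached on day 5. Chow reversal mice were injected with vehicle. The drug and the diet at sampling therefore changed together between these groups, and this comparison alone cannot tell their shares in a difference apart. As references served 9 DIO-MASH mice that stayed on the MASH diet and were given vehicle for 8 weeks. A further 7 mice were kept on chow throughout, given vehicle and sampled at 24 weeks.

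Semaglutide is an agonist of the receptor for glucagon-like peptide 1, which lowers food intake and body weight. The liver takes up dietary cholesterol and adjusts its own synthesis to it. When sterols are scarce in the endoplasmic reticulum, the transcription factor SREBP2 turns on the enzymes of cholesterol synthesis and sterol uptake, and when sterols abound, oxysterols activate the LXR receptors, which raise sterol export and SREBP1c. Lipid-laden livers also gather monocyte-derived macrophages and activate stellate cells, which lay down collagen.

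Total counts per library were 12487868, 16812443 and 19384181 in semaglutide mice and 8907160, 16525339 and 17320026 in chow reversal mice (lowest, median and highest), and the groups did not differ beyond their spread (exact two-sided permutation test, p = 0.437). Levels are given as CPM, counts brought to one common library size with TMM factors. The transcript of the drug's own receptor, Glp1r, was near the limit of detection, with 13 reads over the 7 semaglutide livers and 11 over the 7 chow reversal livers. Of 14904 genes tested, 918 differed between semaglutide and chow reversal at an adjusted p under 0.05 (6.16% of genes). Of these, 525 were higher with semaglutide (3.52%) and 393 lower (2.64%). These shares of all genes stand as background to the counts of list members below. A difference of 2-fold or more was found in 137 of the higher and 119 of the lower genes. The median log2 fold change of all genes was 0.02. Scaled to library totals alone this median was 0.16 and the split became 1296 higher and 231 lower, so directions of small changes hold relative to the scaling. In 648 genes (4.35%) the mice of both groups did not overlap, with semaglutide higher in 289 (1.94%) and lower in 359 (2.41%). On the first principal component of the 30 libraries of the 4 groups, which held 38.7% of the variance, semaglutide livers lay between -0.746 and 37.6 and chow reversal livers between -34.4 and -5.66, with vehicle livers at 31.6 to 64.7 and chow livers at -74.1 to -29.2. The spread of semaglutide livers did not overlap that of chow reversal livers on this axis.

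Cholesterol synthesis had the largest median difference of the 32 pathway lists. All 19 enzymes of the pathway tested were lower with semaglutide than with chow reversal, against 2.64% of all genes, and in all 19 the 2 groups did not overlap. Their median difference was -2.19 on the log2 scale, beside 0.02 over all genes. Sequences that lie before the start of some of these genes are shown first, because the genes moved together. They are RefSeq promoter windows of build GRCm38.p6, from 250 bases before to 50 bases after the start, written 5′ to 3′, with CCAAT and the sterol-element-like motif TCACNCCAC in capitals where they occur on either strand.
Hmgcs1 (chr13:119690101-119690400, plus strand): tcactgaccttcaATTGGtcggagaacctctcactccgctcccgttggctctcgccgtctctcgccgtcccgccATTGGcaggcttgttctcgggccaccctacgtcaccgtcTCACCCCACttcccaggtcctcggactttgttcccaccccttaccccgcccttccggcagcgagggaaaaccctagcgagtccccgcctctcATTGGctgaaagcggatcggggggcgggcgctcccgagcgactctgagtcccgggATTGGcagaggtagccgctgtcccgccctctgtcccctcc
Idi1 (chr13:8885356-8885655, plus strand): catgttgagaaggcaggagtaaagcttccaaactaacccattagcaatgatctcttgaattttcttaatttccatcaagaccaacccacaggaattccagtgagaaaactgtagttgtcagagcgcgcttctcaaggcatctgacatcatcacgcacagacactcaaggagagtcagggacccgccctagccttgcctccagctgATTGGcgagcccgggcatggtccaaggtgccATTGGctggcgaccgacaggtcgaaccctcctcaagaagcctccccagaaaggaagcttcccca
Msmo1 (chr8:64733529-64733828, minus strand): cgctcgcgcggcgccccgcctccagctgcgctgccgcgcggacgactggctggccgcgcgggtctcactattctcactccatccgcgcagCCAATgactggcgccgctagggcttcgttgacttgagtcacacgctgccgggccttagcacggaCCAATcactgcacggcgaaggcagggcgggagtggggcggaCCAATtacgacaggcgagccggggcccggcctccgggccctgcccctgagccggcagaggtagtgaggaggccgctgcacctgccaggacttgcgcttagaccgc
Cyp51 (chr5:4104648-4104947, minus strand): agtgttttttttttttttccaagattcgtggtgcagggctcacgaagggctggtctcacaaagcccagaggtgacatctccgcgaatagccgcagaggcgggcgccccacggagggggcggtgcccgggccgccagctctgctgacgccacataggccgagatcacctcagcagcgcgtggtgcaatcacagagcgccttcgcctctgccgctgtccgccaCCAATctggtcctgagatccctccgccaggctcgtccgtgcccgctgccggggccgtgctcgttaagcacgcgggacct
Promoter windows matched 14 of the 19 enzymes. CCAAT, or ATTGG on the other strand, was present in all 14, whereas 41.1% of the 27025 genes with a window held it. TCACNCCAC was present in Hmgcs1 alone of the 14, and in 1.44% of all genes. These matches describe letters in a window and are no evidence of binding.

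Sqle encodes squalene epoxidase, which makes the first oxygenated sterol precursor, and had the largest difference of the genes described. It stood at 0.675, 0.864 and 2.09 CPM in semaglutide mice and 86.7, 100.1 and 131 CPM in chow reversal mice (lowest, median and highest, here and below). The groups were far apart, with Sqle 91.2-fold lower with semaglutide. The log2 fold change, semaglutide minus chow reversal, was -6.51 ± 0.43 (± SE here and below, adjusted p = 1.21e-20). Idi1, which isomerises isopentenyl diphosphate, gave 13.1, 21.4 and 33.6 CPM with semaglutide and 259, 341 and 391 CPM with chow reversal. Its log2 fold change was -3.93 ± 0.29, adjusted p = 3.67e-18, and every semaglutide mouse was below every chow reversal mouse. Mvd, the mevalonate diphosphate decarboxylase, was at 1.97, 3.45 and 9.03 CPM with semaglutide and 38.8, 55.8 and 74.6 CPM with chow reversal (-3.64 ± 0.35, adjusted p = 9.37e-13). Msmo1, a sterol C4-methyl oxidase, had 17.9, 28.6 and 44.7 CPM in semaglutide mice, against 250.1, 299 and 332 CPM in chow reversal mice (-3.22 ± 0.20, adjusted p = 1.46e-21). Cyp51, the lanosterol demethylase, had 18.7, 24.5 and 48.6 CPM in semaglutide mice, against 209, 249.6 and 291 CPM in chow reversal mice (-3.16 ± 0.21, adjusted p = 3.29e-20). Neither gene had any mouse in the range of the other group.

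Enzymes at other steps of the pathway went the same way. Hmgcs1, which makes HMG-CoA, was at 60.7, 99.1 and 116 CPM with semaglutide and 505, 614 and 789 CPM with chow reversal (-2.79 ± 0.20, adjusted p = 4.49e-19). Fdps, Fdft1 and Tm7sf2, which act at farnesyl diphosphate, squalene and the sterol C14 double bond, had log2 fold changes of -2.97 ± 0.29, -2.02 ± 0.13 and -2.18 ± 0.13. Among the smaller differences were those of Ebp and Sc5d, of the later steps, at -0.77 and -1.09.

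The references place these levels. Sqle had a median of 1.73 CPM with vehicle and 103 CPM on chow, and Idi1 24.1 and 338 CPM. Against vehicle at 8 weeks, 1 of the 19 enzymes was higher with semaglutide (Ebp, log2 fold change 0.36) and none lower, where 5.75% of all genes were called, 2.24% higher and 3.51% lower. Against the same vehicle mice, all 19 were higher with chow reversal, where 32.1% of all genes were called, 14.2% higher and 17.9% lower. Both comparisons share the vehicle libraries.

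**Figure D1:**
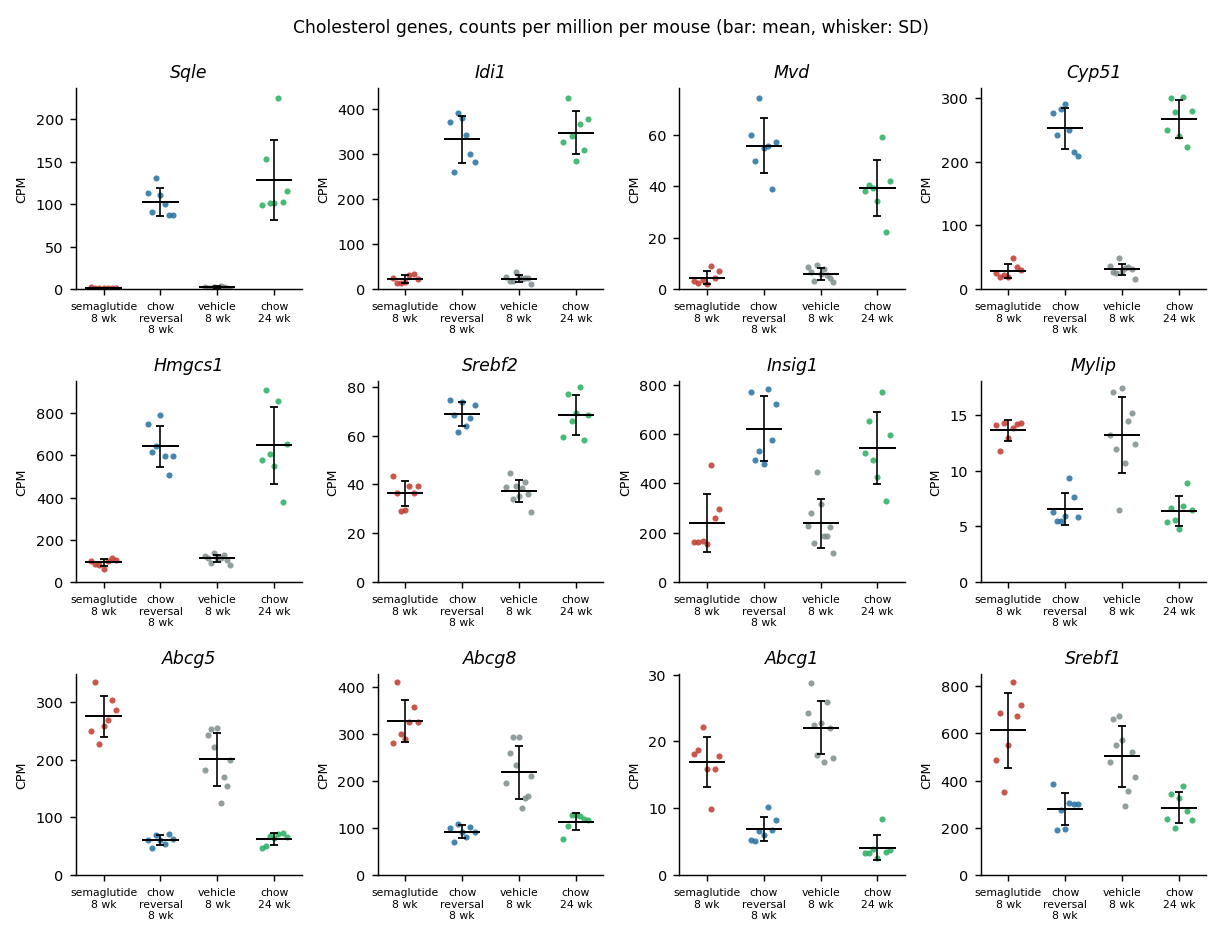
Level in CPM (vertical axis, linear, from 0) of 12 cholesterol genes in each mouse, for semaglutide and chow reversal at 8 weeks, vehicle at 8 weeks and chow at 24 weeks; bars are means and whiskers SD. Sqle, Idi1, Mvd, Cyp51, Hmgcs1, Srebf2 and Insig1 are low with semaglutide and vehicle and high with chow reversal and chow, and Mylip, Abcg5, Abcg8 and Srebf1 show the opposite order.

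Most genes that govern sterol uptake were lower as well. Of 10 tested members of the list on cholesterol uptake and SREBP2 control, 6 were lower with semaglutide (among them Srebf2, Stard4, Insig1 and Scap) and 1 was higher (Mylip). Srebf2, which encodes SREBP2, was at 29.3, 36.5 and 43.4 CPM with semaglutide and 61.3, 68.4 and 74.5 CPM with chow reversal (-0.92 ± 0.11, adjusted p = 4.42e-09). All 7 semaglutide mice were below all chow reversal mice. Insig1, which holds SREBP in the endoplasmic reticulum, was at 153, 168 and 476 CPM with semaglutide and 479, 574 and 781 CPM with chow reversal (-1.37 ± 0.27, adjusted p = 0.000334), with no overlap. Scap, the SREBP escort, and Stard4, a cytosolic sterol carrier, had log2 fold changes of -0.64 ± 0.14 and -1.06 ± 0.21. Mylip, a ubiquitin ligase that limits lipoprotein uptake, was at 11.8, 14.1 and 14.3 CPM with semaglutide and 5.43, 5.88 and 9.3 CPM with chow reversal (1.05 ± 0.17, adjusted p = 1.28e-05).

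Several sterol export genes were higher with semaglutide. Of 14 tested members of the efflux and esterification list, 6 were higher (Abcg5, Abcg8, Abcg1, Scarb1, Abca1 and Soat1) and 1 lower (Cyp27a1). Abcg5 and Abcg8 encode the partner subunits of the transporter that secretes cholesterol into bile, and they lie head to head on chromosome 17. The Abcg5 window is printed here because its capitals mark the 209 bases it shares with the window of Abcg8 (chr17:84682871-84683170, plus strand).
Abcg5 (chr17:84682962-84683261, minus strand): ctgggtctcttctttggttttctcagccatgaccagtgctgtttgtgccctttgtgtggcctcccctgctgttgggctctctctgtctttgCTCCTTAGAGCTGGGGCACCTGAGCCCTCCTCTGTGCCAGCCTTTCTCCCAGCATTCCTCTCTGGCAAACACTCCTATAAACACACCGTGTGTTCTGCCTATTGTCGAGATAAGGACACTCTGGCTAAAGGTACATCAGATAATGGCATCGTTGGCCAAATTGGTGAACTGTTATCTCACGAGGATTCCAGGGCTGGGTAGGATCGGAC
Abcg5 stood at 228, 269 and 334 CPM in semaglutide mice and 46.6, 61.6 and 71 CPM in chow reversal mice, and Abcg8 at 281, 325 and 410.0 CPM in semaglutide mice and 70.6, 92.5 and 109 CPM in chow reversal mice. No mouse of one group reached the other in either gene. Their log2 fold changes were 2.18 ± 0.19, adjusted p = 7.77e-15, and 1.82 ± 0.20, adjusted p = 1.07e-10. Vehicle medians were 199 CPM for Abcg5 and 211 CPM for Abcg8, and Abcg8 was higher with semaglutide than with vehicle (0.58 ± 0.18, adjusted p = 0.0411) while Abcg5 missed the threshold (0.46 ± 0.17, adjusted p = 0.0936).

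Abcg1, an exporter to lipoproteins, was at 9.94, 17.9 and 22.2 CPM with semaglutide and 5.13, 6.54 and 10.2 CPM with chow reversal (1.29 ± 0.19, adjusted p = 1.47e-06), and Abca1, the exporter to apolipoprotein A-I, was at 137, 175 and 188 CPM with semaglutide and 68.3, 79.8 and 138 CPM with chow reversal (0.83 ± 0.22, adjusted p = 0.0122). For each of them 6 of 7 semaglutide mice were above all chow reversal mice. Scarb1, the HDL receptor, was higher by 0.67 ± 0.12 with no overlap. Soat1, which esterifies cholesterol, was higher by 0.78 ± 0.21, and its adjusted p was 0.086 without semaglutide mouse 3. Cyp27a1, a sterol side-chain hydroxylase, was lower, at -0.53 ± 0.13 on the same log2 scale, with no overlap.

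**Figure D2:**
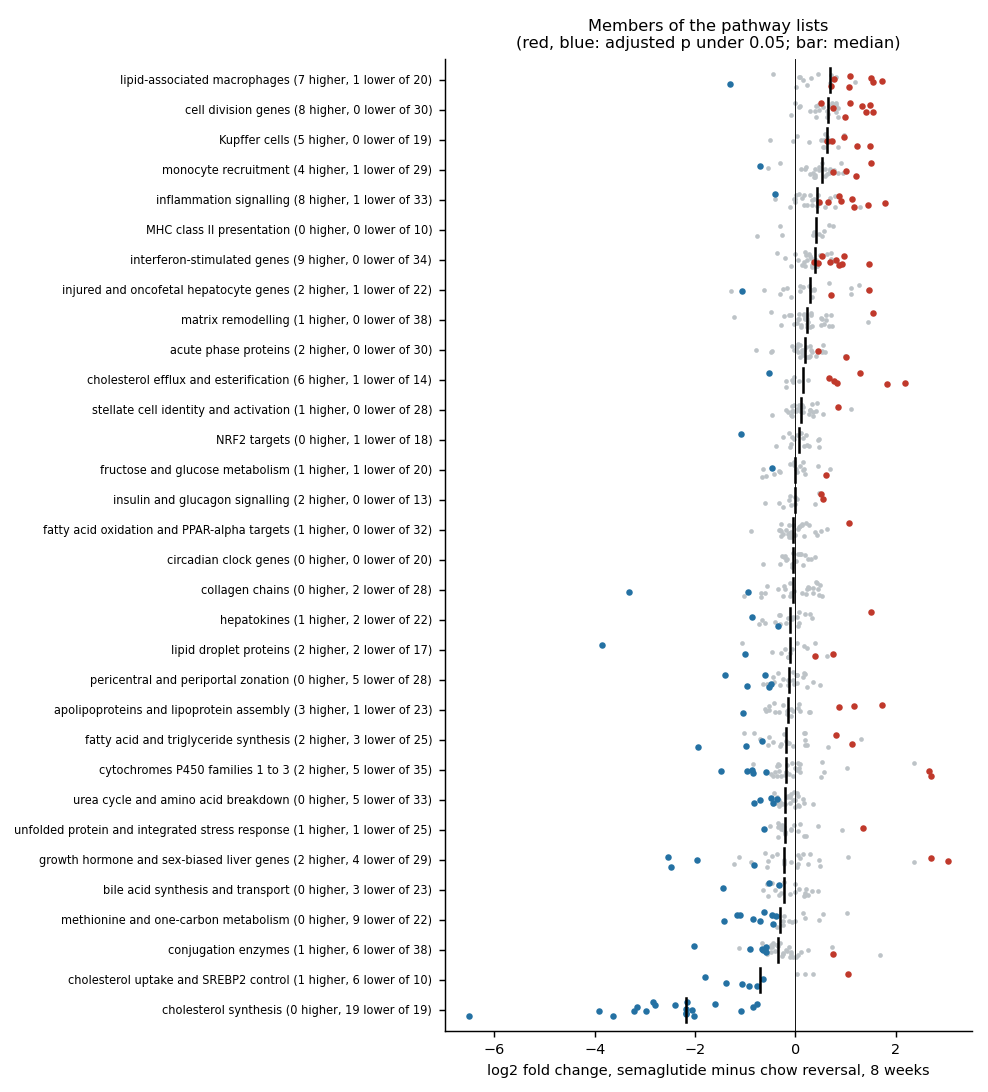
Log2 fold change, semaglutide minus chow reversal at 8 weeks (horizontal axis), of each tested member of 32 pathway lists (rows, ordered by median); red and blue points passed an adjusted p under 0.05, grey points did not, and bars are medians. Cholesterol synthesis lies alone at the lower end with a median of -2.19, and macrophage, monocyte and cell division lists lie at the upper end with medians of 0.52 to 0.70.

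Genes of fatty acid and triglyceride synthesis did not move as a block. Of 25 tested, 2 were higher with semaglutide (Srebf1 and Scd1) and 3 lower (Acss2, Slc25a1 and Mogat1), with a list median of -0.18. That is 20% of the list, where 6.16% of all genes were called. Mogat1 lost its call without semaglutide mouse 3 (adjusted p = 0.0572). Srebf1, which encodes the lipogenic factor SREBP1c, was at 351, 671 and 819 CPM with semaglutide and 192, 299.6 and 385 CPM with chow reversal (1.13 ± 0.23, adjusted p = 0.00043). Scd1, the stearoyl-CoA desaturase, was at 9457, 16583 and 21800.3 CPM with semaglutide and 6616, 9179 and 12455 CPM with chow reversal (0.81 ± 0.20, adjusted p = 0.00591). In both genes 6 of 7 semaglutide mice were above all chow reversal mice. Acss2, a cytosolic acetyl-CoA synthetase, was at 53.5, 93.8 and 197 CPM with semaglutide and 275, 379 and 483 CPM with chow reversal (-1.94 ± 0.30, adjusted p = 2.21e-06), and Slc25a1, the mitochondrial citrate carrier, was lower, at -0.67 ± 0.13. Fasn, the fatty acid synthase, spread from 289 to 2265 CPM in semaglutide mice and 754 to 1656 CPM in chow reversal mice and gave no call (95% interval of the log2 fold change -1.36 to 0.26).

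Of 17 lipid droplet proteins tested, 2 were lower with semaglutide (Cidea and Fitm1) and 2 higher (Hsd17b11 and Plin3), 23.5% of the list. Plin3 lost its call without any 1 of 3 mice. Cidea, which promotes droplet fusion and is scarce in healthy liver, was at 0.115, 1.62 and 4.41 CPM in semaglutide mice and 11.8, 23.6 and 39.1 CPM in chow reversal mice (-3.85 ± 0.51, adjusted p = 4.45e-08). Its medians were 14.8 CPM with vehicle and 0.673 CPM on chow, and it was lower with semaglutide than with vehicle (-3.34 ± 0.49, adjusted p = 2.32e-06). The difference between chow reversal and vehicle gave no call (0.51 ± 0.40, adjusted p = 0.339). Fitm1, an endoplasmic reticulum protein of droplet formation, was lower, at -1.01 ± 0.20, and Hsd17b11, a droplet-bound dehydrogenase, was higher by 0.76 ± 0.12, both with no overlap. Plin2, the main coat protein of liver droplets, gave no call (95% interval -0.50 to 0.20).

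Lipoprotein genes gave 3 higher (Lpl, Apoc2 and Apoa4) and 1 lower (Pltp) of 23 tested. This is 17.4% of the list, where 6.16% of all genes were called. Apoa4, a component of triglyceride-rich particles, was at 681, 815 and 1093 CPM with semaglutide and 272, 405 and 475 CPM with chow reversal (1.18 ± 0.36, adjusted p = 0.0309), against a vehicle median of 2377 CPM. Its groups did not overlap, but its adjusted p lay between 0.0521 and 0.0676 without any 1 of 6 mice and was 0.0522 with no filter on low counts. Apoc2 lost its call without any 1 of 8 mice (adjusted p 0.0503 to 0.0712). Pltp, the phospholipid transfer protein, was lower, at -1.04 ± 0.22 with no overlap. In bile acid synthesis and transport, 3 of 23 genes (13%) were lower with semaglutide (Cyp8b1, Cyp27a1 and Baat) and none higher. Baat lost its call when scaled to library totals (adjusted p = 0.194), with no filter (0.111) and without any 1 of 9 mice. Cyp8b1, the 12-alpha hydroxylase that sets the share of cholic acid, was at 56.8, 197 and 267 CPM with semaglutide and 343, 475 and 758 CPM with chow reversal (-1.44 ± 0.34, adjusted p = 0.00363). Cyp7a1, the rate-limiting enzyme of the pathway, gave no call (log2 fold change 0.32 ± 0.49, 95% interval -0.65 to 1.30).

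Of 20 genes of fructose and glucose metabolism 1 was higher and 1 lower with semaglutide. This is 10% of the list, where 6.16% of all genes were called. The lower one was Pfkfb1, which sets fructose 2,6-bisphosphate (-0.48 ± 0.13, adjusted p = 0.0157), and its call was lost when scaled to library totals and without either of 2 mice. Slc2a4, the insulin-sensitive glucose transporter of muscle and fat, was at 2.82, 7.5 and 12 CPM with semaglutide and 0.544, 0.927 and 3.58 CPM with chow reversal (2.32 ± 0.39, adjusted p = 1.57e-05), with a vehicle median of 6.37 CPM. Of 13 genes of insulin and glucagon signalling, Foxo1 and Pik3r1 were higher (15.4% of the list), by 0.55 ± 0.11 and 0.51 ± 0.15. Foxo1 kept its call under every alternative, whereas Pik3r1 lost it with no filter (adjusted p = 0.0561) and without any 1 of 6 mice (0.0581 to 0.0814). Of 32 genes of fatty acid oxidation, 1 was higher (Cyp4a31) and none lower, 3.125% of the list. Of 20 clock genes none was called by edgeR or DESeq2, and 0 had an unadjusted p under 0.05.

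Several enzymes of methionine and one-carbon metabolism were lower with semaglutide. Of 22 genes tested, 9 were lower (Bhmt, Gnmt, Dmgdh, Cth, Aldh1l1, Bhmt2, Shmt1, Pemt and Ahcy) and none higher, with a list median of -0.31. Bhmt, which remethylates homocysteine with betaine, was at 620.4, 1423 and 2038 CPM with semaglutide and 2850.3, 3687 and 4945 CPM with chow reversal (-1.42 ± 0.20, adjusted p = 2.07e-07). Gnmt, which consumes S-adenosylmethionine, was at 903, 1173 and 1551 CPM with semaglutide and 2084, 2519.9 and 2972 CPM with chow reversal (-1.11 ± 0.17, adjusted p = 2.68e-06). Cth, which makes cysteine, and Dmgdh, which degrades dimethylglycine, were lower, at -1.17 ± 0.21 and -0.71 ± 0.12. In these 4 genes all semaglutide mice were below all chow reversal mice. The vehicle median was 1915 CPM for Bhmt and 706 CPM for Gnmt, and of the list 6 genes were higher and 1 lower with semaglutide than with vehicle, where 2.24% of all genes were higher and 3.51% lower. With chow reversal 15 were higher and 3 lower than with the same vehicle mice, where 14.2% of all genes were higher and 17.9% lower.

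Among enzymes of the urea cycle and amino acid breakdown, 5 of 33 were lower (Asl, Agxt, Gpt2, Ass1 and Arg1) and none higher. Asl, the argininosuccinate lyase, was at 362, 451 and 626 CPM with semaglutide and 674, 761 and 1069.8 CPM with chow reversal (-0.83 ± 0.19, adjusted p = 0.00211). This count fell to 2 without semaglutide mouse 3 or chow reversal mouse 2, and was 2 when scaled to library totals. Of 38 conjugation enzymes 6 were lower and 1 higher (Sult1c2), and of 35 cytochromes P450 of families 1 to 3, 5 were lower and 2 higher. These are 18.4% and 20% of the lists, where 6.16% of all genes were called. Cyp2c55, of a family that oxidises drugs and fatty acids, was at 1.4, 2.62 and 5.01 CPM with semaglutide and 5.48, 8.63 and 12 CPM with chow reversal (-1.48 ± 0.24, adjusted p = 9.53e-06). Cyp2f2, a periportal P450, was at 340.3, 489.9 and 533 CPM with semaglutide and 703, 857 and 1150.1 CPM with chow reversal (-0.97 ± 0.24, adjusted p = 0.0062). Ugt1a5 gave the largest fall of the conjugation enzymes (-2.02 ± 0.26, adjusted p = 3.17e-08), but the Ugt1a genes share most of their exons and its counts are uncertain.

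The P450 genes that rose were Cyp2b9 and Cyp2b13, of female-predominant expression, which are near-identical copies whose reads may be shared. Cyp2b9 was at 37.2, 63.7 and 165 CPM in semaglutide mice and 4.12, 10.2 and 28.7 CPM in chow reversal mice (2.71 ± 0.70, adjusted p = 0.0095), with all 7 semaglutide mice above all chow reversal mice. Cyp2b13 was higher by 2.67 ± 0.79, but the adjusted p of 0.0264 rose to between 0.0527 and 0.0692 without any 1 of 6 mice. Some male-predominant genes of the list on growth hormone and sex-biased expression went the other way. Cyp4a12a was at 10.8, 41.4 and 61.1 CPM with semaglutide and 85.4, 160.3 and 224 CPM with chow reversal (-1.97 ± 0.48, adjusted p = 0.00575), and its near-copy Cyp4a12b at 1.06, 4.49 and 12.6 CPM with semaglutide and 25.1, 33.5 and 47.9 CPM with chow reversal (-2.54 ± 0.57, adjusted p = 0.0022). Selenbp2 was lower, at -2.49 ± 0.55, with an adjusted p of 0.0539 without chow reversal mouse 2, which stood at 208 CPM where the other 6 had 21.8 to 49 CPM. In all, 4 of 29 genes of the list were lower (with C8b, lost without any 1 of 4 mice) and 2 higher (Lepr and Cyp2b9). Igf1, the growth hormone target that circulates from liver, did not pass (-0.23 ± 0.13, adjusted p = 0.284).

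Lepr, the leptin receptor, had the largest rise of the genes described, at 17.3, 26.7 and 35.9 CPM in semaglutide mice and 1.88, 3.12 and 4.19 CPM in chow reversal mice (3.05 ± 0.39, adjusted p = 1.93e-08). It was higher with semaglutide than with vehicle too (1.78 ± 0.33, adjusted p = 0.000242) and lower with chow reversal than with vehicle (-1.27 ± 0.37, adjusted p = 0.00562), which share the vehicle mice at a median of 7.87 CPM. Serpina1e, an alpha-1 antitrypsin paralog whose reads may be shared with its copies, was at 40.3, 212 and 596 CPM with semaglutide and 1420.3, 2563 and 7347 CPM with chow reversal (-3.42 ± 0.78, adjusted p = 0.00258). Slc13a2, a dicarboxylate transporter, was of low level, with 0, 0.122 and 0.337 CPM in semaglutide mice and 0.783, 1.42 and 4.43 CPM in chow reversal mice (-3.91 ± 0.59, adjusted p = 1.8e-06). Nfe2, a transcription factor of blood lineages, was lower, at -3.11 ± 0.56. Beside it, 1 of 5 erythroid markers was lower, Alas2 (-0.68 ± 0.18, adjusted p = 0.0134). Its levels were 53.7, 64.1 and 85.6 CPM with semaglutide and 90.0, 104 and 140.0 CPM with chow reversal. That call was lost without chow reversal mouse 2 (adjusted p = 0.0549). The erythroid list as a whole was not lower: 3 of the 5 markers lay above 0, with a median of 0.03. Its summed levels overlapped, at 293 to 480 CPM with semaglutide and 317 to 566 CPM with chow reversal. Of 10 markers of B and plasma cells, 9 lay below 0 with no call by edgeR or DESeq2 (3 at an unadjusted p under 0.05). Their part in the Nfe2 difference was not tested. Among the other largest rises were Dio3os (2.50 ± 0.44), a noncoding RNA beside Dio3 whose strand-specific counting is not stated, Ephb2 (2.05 ± 0.43), a receptor tyrosine kinase, Rad51b (2.09 ± 0.44), of DNA repair, Esco2 (2.15 ± 0.45), of sister chromatid cohesion, and Atp2b2 (1.95 ± 0.49), a calcium pump.

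**Figure D3:**
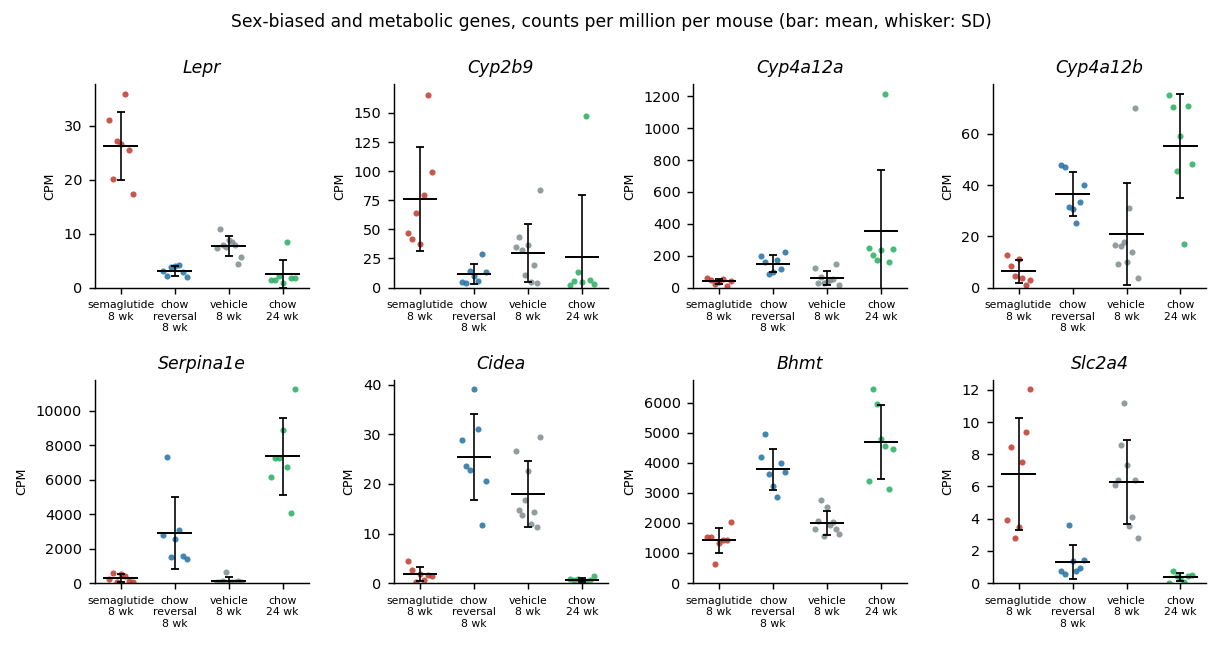
Level in CPM (vertical axis, linear, from 0) of 8 metabolic and sex-biased genes in each mouse, for semaglutide and chow reversal at 8 weeks, vehicle at 8 weeks and chow at 24 weeks; bars are means and whiskers SD. Lepr and Cyp2b9 are high with semaglutide, Cyp4a12a, Cyp4a12b, Serpina1e and Bhmt are high with chow reversal, and Cidea is high with chow reversal and vehicle and near 0 on chow.

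Some macrophage genes were higher with semaglutide than with chow reversal, and fewer cells of a type and less RNA per cell cannot be told apart in whole liver. Of 19 Kupffer cell genes tested, 5 were higher (Cd5l, Adgre1, Mrc1, Folr2 and Slc40a1) and none lower, with a list median of 0.63. Cd5l, a secreted macrophage protein, was at 129.9, 219 and 248 CPM with semaglutide and 49.1, 82.9 and 104 CPM with chow reversal (1.49 ± 0.26, adjusted p = 5.33e-05). Adgre1, which encodes F4/80, was at 19.8, 26.1 and 43.7 CPM with semaglutide and 6.84, 11.1 and 18.5 CPM with chow reversal (1.23 ± 0.33, adjusted p = 0.0128). Neither gene overlapped between the groups. Clec4f, Timd4 and Marco, which mark resident Kupffer cells, gave no call, with log2 fold changes of 0.58 ± 0.27, 0.52 ± 0.60 and 0.55 ± 1.05. The summed level of the list was 963 to 1383 CPM with semaglutide, 667 to 936 CPM with chow reversal and 1185 to 1848 CPM with vehicle.

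Of 20 genes of lipid-associated macrophages, 7 were higher with semaglutide (Lpl, Mmp12, Clec7a, Gpnmb, Cd9, Lgals3 and Cd68) and 1 was lower (Fabp5), but 1 mouse carried much of this. Without semaglutide mouse 3 the count higher was 1, and it was 3 without chow reversal mouse 1 or 2 and 4 without chow reversal mouse 3. Gpnmb, a lysosomal glycoprotein, was at 17.1, 31 and 172 CPM with semaglutide and 11.7, 16.2 and 29.9 CPM with chow reversal (1.52 ± 0.44, adjusted p = 0.0234), and its adjusted p without that mouse was 0.241. Lpl, lipoprotein lipase, kept its call without any 1 mouse, at 39.5, 79.1 and 261 CPM with semaglutide and 26.3, 34.8 and 41.8 CPM with chow reversal (1.72 ± 0.38, adjusted p = 0.00177). Trem2, the receptor that defines these macrophages, did not pass (1.18 ± 0.44, adjusted p = 0.0905). Mouse 3 was the highest semaglutide mouse for Gpnmb, Trem2, Lpl, Cd68 and Mmp12 alike. The median summed level of this list was 2659 CPM with semaglutide, 2500 CPM with chow reversal and 3353 CPM with vehicle. Semaglutide livers, at 2348 to 3882 CPM, overlapped vehicle livers, at 2840 to 3727 CPM. Chow reversal livers, at 2225 to 2630 CPM, lay below them. Than with vehicle, 3 of the 20 genes were lower and 0 higher with semaglutide, and 15 lower and 1 higher with chow reversal. Over all genes 3.51% were lower with semaglutide and 17.9% with chow reversal.

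Of 29 genes of monocyte recruitment, 4 were higher (among them Ccl6, Csf2rb and Itgb2) and 1 lower (Ccl9). Itgb2 lost its call without semaglutide mouse 3 (adjusted p = 0.0649). Ccl9 lost its call when scaled to library totals (adjusted p = 0.0698) and without either of 2 mice. Ccl6, a macrophage chemokine, was at 11, 19.2 and 34.7 CPM with semaglutide and 4.92, 6.96 and 8.56 CPM with chow reversal (1.51 ± 0.33, adjusted p = 0.00166), with no overlap. Ccr2 and its ligand Ccl2 gave no call, with 95% intervals of the log2 fold change of -0.03 to 1.21 and -0.22 to 1.18. Of 33 genes of inflammation signalling, 8 were higher, 5 of them Toll-like receptors (Tlr2, Tlr3, Tlr4, Tlr7 and Tlr8) beside Il1a, Tnfrsf1b and Cd14, and 1 was lower (Nlrp6, lost without any 1 of 6 mice, when scaled to library totals and with no filter). Tlr7, a sensor of RNA, was at 2.31, 3.79 and 5.41 CPM with semaglutide and 0.48, 1.34 and 2.4 CPM with chow reversal (1.46 ± 0.30, adjusted p = 0.000847). Il1a, interleukin 1 alpha, was at 2.92, 3.42 and 4.18 CPM with semaglutide and 0.7, 1.67 and 2.49 CPM with chow reversal (1.12 ± 0.25, adjusted p = 0.00177). Tnf gave no call (95% interval -0.46 to 1.12).

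Of 34 interferon-stimulated genes, 9 were higher with semaglutide (among them Oas3, Gbp3, Ifi44, Oas1a, Oasl2, Tap1, Ddx58 and Ifit2) and none lower, with a median of 0.39. Oas3, an antiviral sensor of double-stranded RNA, was at 1.82, 2.08 and 4.49 CPM with semaglutide and 0.37, 0.767 and 1.72 CPM with chow reversal (1.47 ± 0.31, adjusted p = 0.00117), with no overlap. The count was 4 without chow reversal mouse 3, 5 without semaglutide mouse 2 or 3 or chow reversal mouse 4, and 17 when scaled to library totals. None of 10 genes of MHC class II presentation and none of 11 markers of T and NK cells was called by edgeR, and DESeq2 called 1 and 0 of them. At an unadjusted p under 0.05 in edgeR, 4 of the MHC class II genes and 3 of the T and NK markers were higher. Relative to vehicle, edgeR called 0 of the 34 interferon-stimulated genes with semaglutide (3 higher and 4 lower at an unadjusted p under 0.05, and 1 higher by DESeq2), where 5.75% of all genes were called. With chow reversal 17 were lower and 1 higher than with the same vehicle mice, where 17.9% of all genes were lower and 14.2% higher.

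Marker levels of other cell types stand beside these differences. Hepatocyte markers summed to 97692 to 130310.1 CPM with semaglutide and 121559 to 170724 CPM with chow reversal, and 2 of 10 were lower (Alb and Serpina1a, at -0.42 ± 0.12 and -0.36 ± 0.11). Both calls were lost when scaled to library totals (adjusted p = 0.0633 for Alb and 0.062 for Serpina1a) and with no filter (0.163 for Alb and 0.16 for Serpina1a), that of Alb without chow reversal mouse 2 and that of Serpina1a without any 1 of 11 mice. All 10 markers of sinusoidal endothelium had a log2 fold change above 0 and 2 were higher (Stab2, by 0.78 ± 0.13, and Mrc1). All 9 cholangiocyte markers tested lay below 0 and 1 was lower (Sox9, at -1.07 ± 0.30, lost without any 1 of 3 mice), with a summed level of 67.7 to 215 CPM with semaglutide and 90.1 to 314 CPM with chow reversal. The adipocyte list summed to 1094 to 2552 CPM with semaglutide and 2736 to 4212 CPM with chow reversal, and all 4 markers tested lay below 0. Cfd was lower, at 0.061, 1 and 2.47 CPM with semaglutide and 2.95, 4.54 and 10.7 CPM with chow reversal (-2.26 ± 0.73, adjusted p = 0.0483), a call lost with no filter, with the block on library sets and without any 1 of 10 mice. Car3, which liver also expresses, held 1070.2 to 2517 CPM of this with semaglutide and 2675 to 4148 CPM with chow reversal, while the defining marker Adipoq was at 0 to 0.061 CPM with semaglutide and 0 to 0.123 CPM with chow reversal. Only 4 of 10 neutrophil, 5 of 7 mesothelial and 2 of 9 pancreatic markers passed the filter and were tested. These gave no call by edgeR or DESeq2 (1 pancreatic marker was lower at an unadjusted p under 0.05). Ly6g, Cpa1, Cpb1, Pnlip and Ctrb1 had no read in the 14 libraries. The part of these shifts in the gene differences was not tested.

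Some cell division genes were higher with semaglutide than with chow reversal. Of 30 tested, 8 were higher (Ccnd1, Ccne2, Ccna2, Top2a, Kif11, Ccnb1, Mcm6 and Mcm3), none was lower, and 29 had a log2 fold change above 0, with a median of 0.66. Ccnd1, cyclin D1, was at 41.3, 68.6 and 107 CPM with semaglutide and 19.5, 25.3 and 35.8 CPM with chow reversal (1.4 ± 0.30, adjusted p = 0.00121), with no overlap. Top2a, topoisomerase of dividing cells, was at 2.08, 2.83 and 4.03 CPM with semaglutide and 0.778, 1.28 and 2.28 CPM with chow reversal (1.1 ± 0.31, adjusted p = 0.0174). Its adjusted p was 0.0521 without semaglutide mouse 3 and 0.0539 without chow reversal mouse 2. Without semaglutide mouse 3 the count was 3, and it was 5 without chow reversal mouse 2 or 6. Mki67 missed the threshold (0.80 ± 0.29, adjusted p = 0.0788), although all 7 semaglutide mice were above all chow reversal mice. Vehicle livers were highest, with a Top2a median of 6.7 CPM. Against vehicle, 23 of the 30 genes were lower with semaglutide, where 3.51% of all genes were lower, and 28 with chow reversal, where 17.9% were. Cdkn1a, the p21 cell cycle inhibitor, was at 5.4, 14.4 and 23.6 CPM with semaglutide and 3.52, 4.85 and 7.8 CPM with chow reversal (1.48 ± 0.45, adjusted p = 0.0327). This call was lost with no filter (adjusted p = 0.0536) and without any 1 of 6 mice (0.0574 to 0.0822).

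Fibrillar collagens were not separated. Col1a1 was at 23.1, 25.4 and 49 CPM with semaglutide and 16.8, 26.7 and 34.2 CPM with chow reversal, with overlapping mice and a log2 fold change of 0.26 ± 0.34, adjusted p = 0.67 (95% interval -0.41 to 0.93). Col3a1 was at 44.5, 63.5 and 95.1 CPM with semaglutide and 32.6, 44.7 and 61.2 CPM with chow reversal (0.53 ± 0.28, adjusted p = 0.249, 95% interval -0.02 to 1.09). These intervals are wide, so equal levels are not shown. Vehicle medians were 93.8 and 156 CPM for Col1a1 and Col3a1, and chow medians 4.04 and 12.7 CPM. Of 28 collagen chains tested, 2 were lower with semaglutide than with chow reversal, Col25a1 (median 0 CPM with semaglutide and 0.544 CPM with chow reversal) and Col20a1 (0.972 CPM with semaglutide and 1.73 CPM with chow reversal), both of low level, and none was higher. Col20a1 lost its call when scaled to library totals (adjusted p = 0.0752), with no filter (0.0996) and without any 1 of 8 mice. Against vehicle, 15 were lower with semaglutide, where 3.51% of all genes were lower, and 16 with chow reversal, where 17.9% were. Acta2, of contractile stellate cells, Timp1 and Timp2, inhibitors of matrix proteases, and Mmp13, a collagenase, gave no call, with 95% intervals of -0.53 to 0.59, -0.24 to 1.47, -0.28 to 0.62 and -0.33 to 1.37. Of 28 stellate cell genes only Rgs5, also of pericytes, passed (0.85 ± 0.19, adjusted p = 0.00173), and of 38 matrix remodelling genes only Mmp12. Of the stellate cell genes, 3 were lower with semaglutide and 19 lower with chow reversal than with vehicle, against the same 3.51% and 17.9% of all genes. DESeq2 called 10 of them lower with semaglutide.

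**Figure D4:**
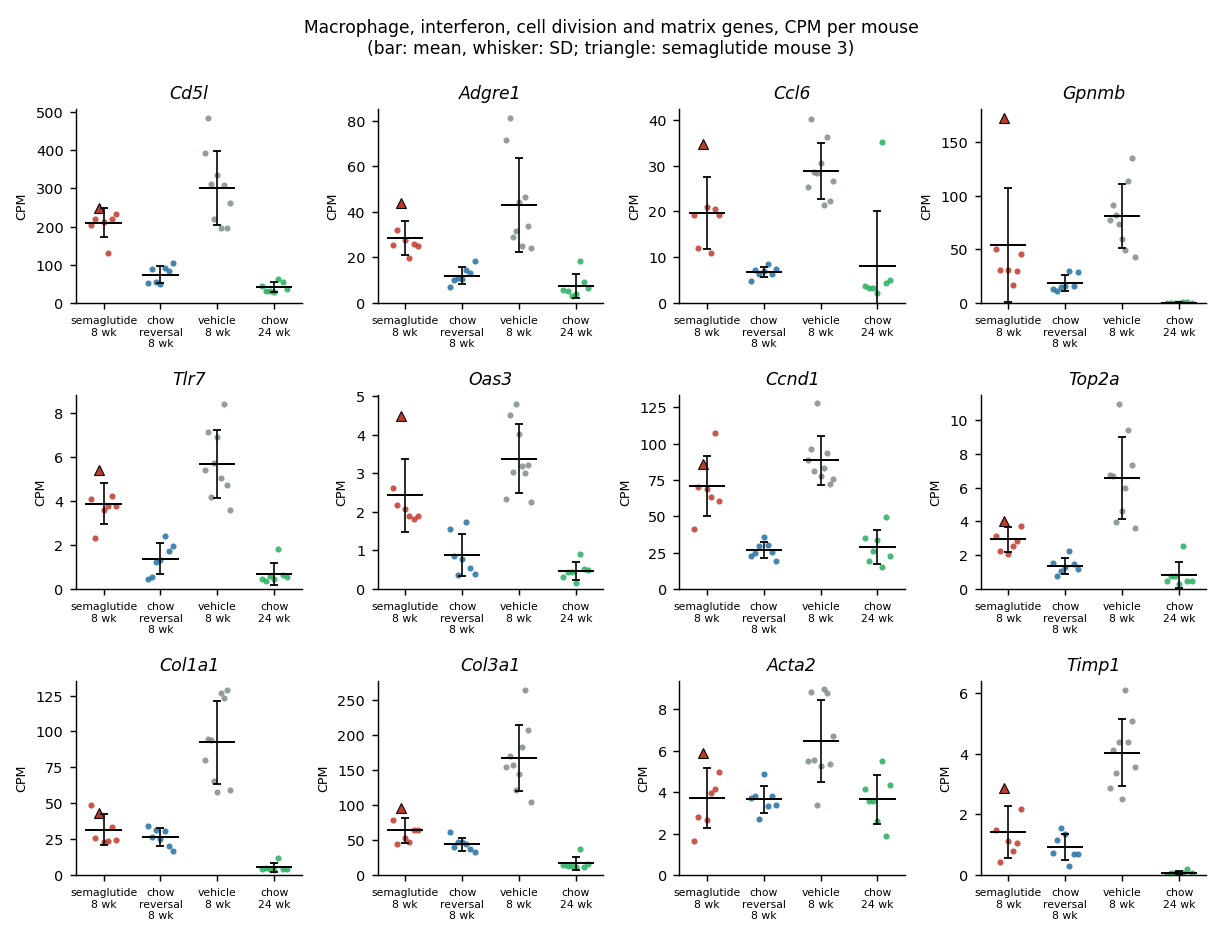
Level in CPM (vertical axis, linear, from 0) of 12 macrophage, interferon, cell division and matrix genes in each mouse, for semaglutide and chow reversal at 8 weeks, vehicle at 8 weeks and chow at 24 weeks; bars are means, whiskers SD, and the triangle is semaglutide mouse 3. Cd5l, Adgre1, Ccl6, Tlr7, Oas3 and Ccnd1 are higher with semaglutide than with chow reversal, mouse 3 is the highest for Gpnmb at 172 CPM, and Col1a1, Col3a1, Acta2 and Timp1 overlap between these groups.

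In the remaining lists the share of genes called is read against 6.16% of all genes. Of 28 zonation genes 5 were lower (17.9%; Rhbg, Cyp27a1, Cyp2f2, Aldh1b1 and Ass1), with Ass1 lost without any 1 of 7 mice. Of 22 hepatokines 1 was higher (Gpnmb) and 2 lower (among them Fetub, -0.87 ± 0.21), and of 22 genes of injured hepatocytes 2 were higher (Cdkn1a and Cd44) and 1 lower (Sox9), 13.6% in each list. The other lists lay near that share. In the unfolded protein and integrated stress response, 1 of 25 was higher (Chac1, 1.35 ± 0.32) and 1 lower (Atf4, -0.63 ± 0.14), which is 8%. Of 30 acute phase proteins, 2 were higher (6.67%; Il1rn, 1.00 ± 0.25, and Lbp, 0.46 ± 0.14), and Lbp lost its call with no filter (adjusted p = 0.0617) and without any 1 of 8 mice (0.0542 to 0.1). Of 18 NRF2 targets 1 was lower (5.56%; Osgin1, -1.08 ± 0.32), a call lost without any 1 of 3 mice.

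The same comparison at later times used other mice. Semaglutide and chow reversal differed in 1460 genes at 16 weeks (9.8%, with 6.24% higher and 3.56% lower) and in 2457 at 24 weeks (16.5%, with 7.77% higher and 8.72% lower). These counts do not order the times: when each fit held no other groups they were 2999 at 8 weeks, 801 at 16 weeks and 515 at 24 weeks. Of the 525 genes higher at 8 weeks, 265 were called higher at 16 weeks and 263 at 24 weeks, and of the 393 lower, 182 and 163 were called lower. Of all these, 1 gene was called in the opposite direction at 24 weeks. All 19 cholesterol synthesis enzymes were lower with semaglutide at each time, with list medians of -2.19, -1.85 and -2.06 at 8, 16 and 24 weeks. Sqle differed by -6.51, -5.96 and -6.42 and Abcg5 by 2.18, 1.99 and 2.16 on the log2 scale. Kupffer cell genes higher with semaglutide numbered 5, 9 and 14 of 19, MHC class II genes 0, 5 and 8 of 10, interferon-stimulated genes 9, 20 and 17 of 34, and cell division genes 8, 15 and 5 of 30. The test of 24 minus 8 weeks given below called 0 members of these lists. Their counts do not order the times either.

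A test of whether the difference at 24 weeks differed from that at 8 weeks called 3 genes (0.0201%), Hamp2 upward (0.00671%) and Zfp719 and Ddx52 downward (0.0134%). This low count does not show that the times were alike, since 3993 genes had an unadjusted p under 0.05, 1061 had an adjusted p under 0.1 and DESeq2 called 43. Hamp2, a hepcidin paralog whose reads may be shared with Hamp, differed by -0.30 at 8 weeks and 2.85 at 24 weeks (difference 3.15 ± 0.66, adjusted p = 0.0478). Zfp719, a zinc finger gene, differed by 0.71 and -0.58 (-1.29 ± 0.25, adjusted p = 0.0349), and Ddx52, an RNA helicase gene, by 0.16 and -0.37 (-0.53 ± 0.11, adjusted p = 0.0375).

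**Figure D5:**
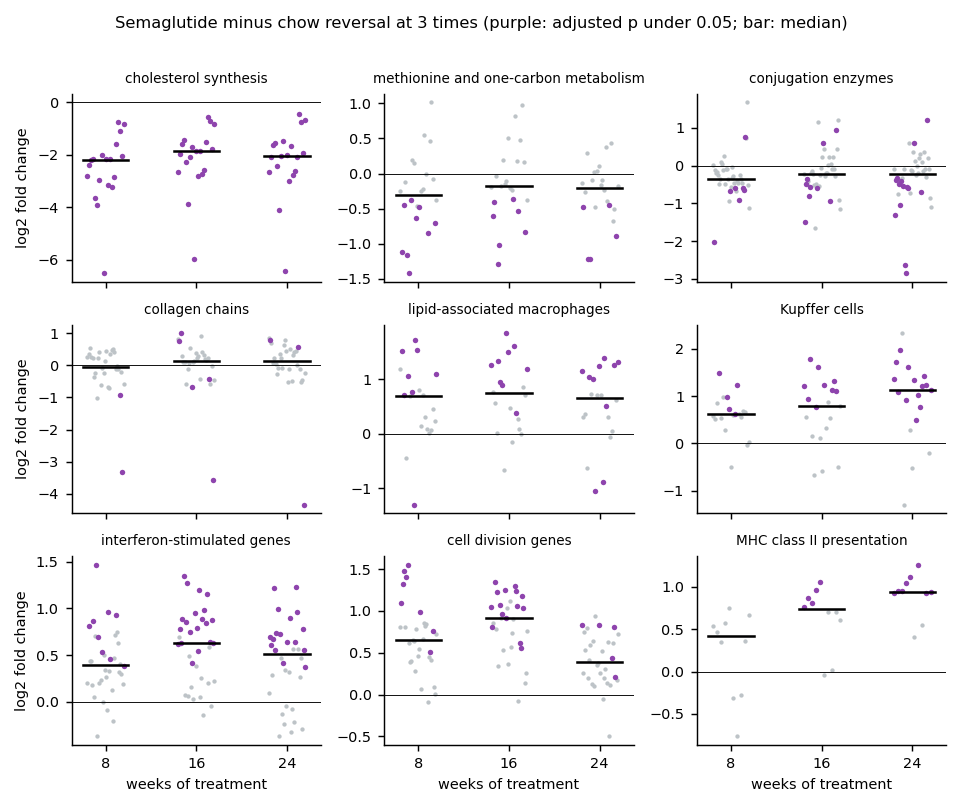
Log2 fold change, semaglutide minus chow reversal (vertical axis), of the members of 9 lists after 8, 16 and 24 weeks of treatment (horizontal axis); each point is a gene, purple points passed an adjusted p under 0.05, and bars are medians. Cholesterol synthesis stays near -2.19, -1.85 and -2.06, collagen chains stay near 0, and the Kupffer cell and MHC class II medians are 0.63 and 0.42 at 8 weeks and 1.13 and 0.94 at 24 weeks.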

How the data were processed

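RNA from the left lateral liver lobe was sequenced as directional libraries (NEBNext Ultra II) on a NextSeq 500. The authors aligned reads to GRCm38 with STAR 2.7.3a, quantified transcripts with Salmon 1.2.0 and deposited estimated counts per gene for 77 libraries. The submitters' processing notes also name FastQC 0.11.9, Picard and DESeq2. The annotation release and the strand setting are not given in the sources used here. Of 55487 genes, 55227 had a symbol, and the 260 without one held 0.0155% of counts and were left out. Fractional values (7.55%) were rounded to whole numbers.

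Counts were tested with edgeR 4.0.16 (R 4.3.3), with TMM factors, filterByExpr by group and the quasi-likelihood test, in 1 fit over all 77 libraries and 10 groups, so that groups shared 1 estimate of the spread. P-values were adjusted by the Benjamini-Hochberg method across all 14904 genes that passed the filter, and 0.05 was the limit for a call. Total counts ranged from 8883190 to 37631125 over all libraries. Levels are TMM-scaled CPM, and fold changes used a prior count of 0.125. CPM is not divided by gene length, so levels were compared between mice and not between genes. Each mouse gave 1 library, so p-values measure the spread between mice. Sequences came from RefSeq promoter windows (GRCm38.p6). Mice were sampled once each.

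The mice were assigned by their treatment labels. This comparison, its members and the 42 gene lists were chosen with earlier results of these data known, so no list is independent support for its direction. Genes named were the 10 largest rises and 10 largest falls past the threshold with an average log2 CPM above 0, leaving out predicted genes, clones and pseudogenes, then in each list up to 4 members with the smallest p and those that complete a count of 5 or fewer, then Timp1, Timp2, Mmp13 and Glp1r, and up to 5 genes of the test of 24 minus 8 weeks. Further genes were named after their values were seen, where they are the textbook markers of a list. Alternatives were DESeq2 1.42.0, RLE factors, library totals, no filter beyond 1 count, only the compared groups, leaving out 3 libraries numbered apart from the rest, a block for the library set, and leaving out each of the 14 mice. The 3 libraries, called second-series below, were set apart by a gap in library numbers alone. All 3 came from semaglutide mice of 16 or 24 weeks. Predicted genes took 3.34% to 4.11% of their counts, and 1.07% to 2.73% in the other libraries. No label names a series or a library set. An adjusted p under 0.1 for the test between times was added after the p-values were seen. The scripts were tested on simulated data. A few genes counted in the lists are not reported here by name.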

Additional observations from a re-analysis of the deposited data

Results flagged for a closer look

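In 15 of 280 groups of 7 mice examined (5.36%), 1 mouse stood apart by Dixon's test, where chance gives about 1 in 20. Of these, 6 were semaglutide mouse 3 and 3 semaglutide mouse 5. Semaglutide mouse 3 was lowest for Cyp8b1 (56.8 CPM), Bhmt (620 CPM) and Dmgdh (268 CPM) and highest for Cd68 (45 CPM), Oas3 (4.49 CPM) and Timp2 (42.5 CPM). Semaglutide mouse 5 was lowest for Abcg1 (9.94 CPM), Pparg (7.87 CPM) and Cd5l (130 CPM). Semaglutide mouse 6 was lowest for Baat (183 CPM), and its 10 most abundant genes took 20.6% of counts, the highest share of its group. Among chow reversal mice, mouse 1 was highest for Gpt2 (637 CPM), mouse 2 highest for Selenbp2 (208 CPM) and lowest for Ephb2 (0.156 CPM), and mouse 5 highest for Mmp12 (13.6 CPM).

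In 3 genes the difference between semaglutide and chow reversal at 24 weeks differed from that at 8 weeks (edgeR quasi-likelihood test of the difference itself). The log2 fold change at 24 minus 8 weeks was 3.15 for Hamp2 (adjusted p = 0.0478), -1.29 for Zfp719 (adjusted p = 0.0349) and -0.53 for Ddx52 (adjusted p = 0.0375).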

How the results depend on the processing

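Of 114 described genes past the threshold, 81 were neither lost nor reversed under any of the 7 alternatives or without any 1 of the 14 mice. A gene with no adjusted p under an alternative was not counted as lost there. Of the 137 described genes, 136 had one with DESeq2 and 134 with only the compared groups. All 19 cholesterol synthesis enzymes were called lower without any 1 mouse. The count of 918 genes was 1527 with library totals, 603 with no filter and 2999 with only the compared groups, where the groups' own spread replaces the shared one. Against vehicle the count of 857 was 558 with no filter and 2115 with only the compared groups. At 16 weeks it was 801 with only the compared groups and 869 without the second-series libraries, and at 24 weeks 515 with only the compared groups. The 3 genes of the test between times became 43 with DESeq2, 0 with library totals, 0 with only the compared groups, 5 without the second-series libraries and 1061 at an adjusted p under 0.1. With only the compared groups, 291 list members were called (149 otherwise), P450 genes lower numbered 11, conjugation enzymes lower 18, urea cycle genes lower 12, zonation genes lower 8, Kupffer cell genes higher 12, inflammation genes higher 14 and interferon-stimulated genes higher 19. With library totals, urea cycle genes lower numbered 2, Kupffer cell genes higher 11 and interferon-stimulated genes higher 17. With no filter, urea cycle genes lower numbered 2, lipid-associated macrophage genes higher 4, inflammation genes 5, interferon-stimulated genes 5 and cell division genes 5. With the library set block, Kupffer cell genes higher numbered 8. For these moves the cause was not tested. Leaving out 1 mouse gave 599 (without semaglutide mouse 3) to 1006 genes, with 613 without chow reversal mouse 2, and 110 to 159 list members. The same gave 19 to 19 cholesterol synthesis genes, 5 to 6 of uptake, 5 to 6 of efflux, 4 to 6 P450 genes, 5 to 6 conjugation enzymes, 2 to 6 of the urea cycle, 8 to 9 of one-carbon metabolism and 4 to 6 zonation genes. Immune and division lists gave 1 to 8 lipid-associated macrophage genes, 5 to 7 Kupffer cell genes, 5 to 8 inflammation genes, 4 to 12 interferon-stimulated genes and 3 to 8 cell division genes. The difference in mean total counts was 0.169 to 1.82 megareads. Acta2, with no call, ranged up to 0.15 and turned to a log2 fold change of -0.11 without semaglutide mouse 3, -0.000925 without mouse 6, -0.05 without mouse 7 and -0.04 without chow reversal mouse 3, and Timp2 ranged up to 0.24 and turned to -0.000615 without semaglutide mouse 3. Genes under about 1 CPM rest on few reads at these depths. The labels give no replicate numbers, so mice were not paired by number. Each 8-week semaglutide mouse shared its set of consecutive library numbers with 1 chow reversal mouse of 8 weeks. Not every set held every group of the series. A block on these sets gave 1216 genes, among them 915 of the 918.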

Other observations

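Against vehicle at 8 weeks, 523 genes were lower and 334 higher with semaglutide, and 2665 lower and 2117 higher with chow reversal. Of 38 matrix remodelling genes, 16 were lower with semaglutide and 26 with chow reversal than with vehicle. Of 19 Kupffer cell genes, 1 was higher and 0 lower with semaglutide than with vehicle in edgeR (3 lower at an unadjusted p under 0.05, 0 by DESeq2), and 11 were lower with chow reversal. Of 33 inflammation genes, 1 was higher and 0 lower with semaglutide (11 lower at an unadjusted p under 0.05, 1 by DESeq2), and 20 were lower and 2 higher with chow reversal. Over all genes 3.51% were lower with semaglutide and 17.9% with chow reversal. Both comparisons share the vehicle libraries.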
